A study of Mus musculus with 4 samples.

Results

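The mouse mitochondrial genome is a circle of 16299 bases that carries 37 genes, and all 37 were present in the deposited table among 78275 genes. They were taken by chromosome alone, as every gene annotated on chrM with a symbol beginning mt-. No measured value entered this rule, but the set was chosen with earlier results of these data known. They comprise 13 genes for proteins, 2 for ribosomal RNAs and 22 for transfer RNAs. RNA was sequenced from testis cells of mice at post-natal day (Pnd) 5, with 2 WT libraries and 2 Sirt7-/- libraries (labelled KO, written Sirt7_KO in the plots). All 4 libraries came from the 129S1/Sv background, each from a pellet of 200000 cells enriched in spermatogonia by differential plating, a step that removes somatic cells by their faster attachment and sorts nothing. The mutant libraries came from Sirt7 knockout mice, which lack SIRT7, a sirtuin deacetylase of the nucleus and nucleolus, and no other allele or treatment was given for either genotype. The study's methods call the 2 RNA libraries of a genotype independent biological replicates. They give a separate mouse per replicate for the matching chromatin samples, and for the RNA pellets do not say whether a pellet held cells of 1 animal or several.

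Each strand of the mitochondrial genome is copied as a long transcript that carries many genes. The tRNA genes lie between the others, and cutting the tRNAs out at both ends releases the mRNAs and rRNAs. The levels of single mitochondrial RNAs therefore depend on how fast each is trimmed, tailed and degraded as well as on transcription. The 13 proteins are all membrane subunits of oxidative phosphorylation: 7 of complex I, 1 of complex III, 3 of complex IV and 2 of the ATP synthase. The rRNAs and tRNAs serve the mitochondrion's own ribosome. In the neonatal testis the spermatogonia, the germ cells from which sperm descend, lie among Sertoli cells and share the cords with them.

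The genes are packed with few bases between them, which bears on how reads could be assigned. Of the 37, 28 are transcribed from the heavy strand (12 protein, 14 tRNA and both rRNA genes) and 9 from the light strand (mt-Nd6 and 8 tRNA genes). On GRCm39, mt-Atp8 and mt-Atp6 share 43 bases, mt-Nd4l and mt-Nd4 share 7, and mt-Nd5 and mt-Nd6 share 14 on opposite strands. The sequences below, read from the reference in the sense of the transcript, show the shared ends in capitals for the 2 short genes whose neighbours overlap them.
mt-Atp8, chrM:7766-7969, + strand, capitals shared with mt-Atp6: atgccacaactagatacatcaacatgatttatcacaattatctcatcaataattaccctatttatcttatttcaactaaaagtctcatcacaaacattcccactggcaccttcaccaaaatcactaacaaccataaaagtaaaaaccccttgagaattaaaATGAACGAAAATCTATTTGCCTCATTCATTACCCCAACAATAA
mt-Nd4l, chrM:9877-10173, + strand, capitals shared with mt-Nd4: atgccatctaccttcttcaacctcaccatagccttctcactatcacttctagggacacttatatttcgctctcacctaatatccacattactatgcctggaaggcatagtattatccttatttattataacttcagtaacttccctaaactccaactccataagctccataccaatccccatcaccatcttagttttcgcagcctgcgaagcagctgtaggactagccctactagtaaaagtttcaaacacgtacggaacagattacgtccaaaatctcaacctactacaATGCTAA
In both genes the capitals open with ATG, the start codon of the downstream gene. Both are shorter than a pair of the 150-base reads laid end to end, so many fragments from either may reach into the neighbour.

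The tRNA genes shown next are the 3 with the most counts and mt-Tl1, which joins mt-Rnr2 to mt-Nd1 with no base between. Capitals mark the anticodon, the 3 bases that pair with the codon.
mt-Tp, proline, chrM:15356-15422, - strand: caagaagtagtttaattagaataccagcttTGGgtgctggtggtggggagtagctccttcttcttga
mt-Tn, asparagine, chrM:5089-5159, - strand: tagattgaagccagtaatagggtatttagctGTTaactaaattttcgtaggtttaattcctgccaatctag
mt-Tc, cysteine, chrM:5192-5257, - strand: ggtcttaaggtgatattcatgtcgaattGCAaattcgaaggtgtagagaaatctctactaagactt
mt-Tl1, leucine, chrM:2676-2750, + strand: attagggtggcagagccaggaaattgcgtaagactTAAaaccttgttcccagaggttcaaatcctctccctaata
Between mt-Tn and mt-Tc lie 32 bases, the known start site of light-strand DNA synthesis, shown on the same strand as both genes with the 8-base arms of its inverted repeat in capitals.
Gap between mt-Tc and mt-Tn, chrM:5160-5191, - strand: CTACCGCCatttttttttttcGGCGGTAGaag

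The 4 libraries held 22007504 to 22181066 counts each, and Sirt7, the deleted gene, was at 704 and 692 counts in WT and at 129 and 122 in Sirt7-/- (edgeR quasi-likelihood test, log2 fold change -2.47 ± 0.11 SE, Benjamini-Hochberg adjusted p = 3.63e-06). Markers of undifferentiated spermatogonia summed to 1223 to 1389 CPM (counts per 1000000, scaled by TMM) across the libraries, and all 14 were detected. Sertoli cell markers summed to 1901 to 2393 CPM and all 8 were detected, so the libraries also held RNA of somatic cells. Sirt7-/- replicate 2 was the highest of the 4 for Sertoli and for peritubular myoid markers (368 to 533 CPM) and the lowest for undifferentiated spermatogonia. Erythroid markers summed to 1017 and 924 CPM in WT and 1536 and 1152 in Sirt7-/-, and stromal markers to 773 and 850 in WT and 640.0 and 734 in Sirt7-/-, both without overlap. The sums of all other marker lists overlapped between genotypes. Among single genes tested, 39.7% did not overlap. No marker of any list was at 0. The part of these cells in the results was not tested. In bulk RNA, fewer cells of a type and less RNA per cell cannot be told apart.

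Counts on the mitochondrial genome were 4.15% of the total in each WT library, 4.25% in Sirt7-/- replicate 1 and 4.13% in Sirt7-/- replicate 2. The mutant values lay on either side of the WT pair, which differed from each other by less than either mutant library did from them. The mean share was 0.0406 percentage points higher in Sirt7-/- (two-sided exact permutation test, p = 1, where 2 against 2 samples cannot give less than 0.333). Protein genes supplied most of it, at 3.98% and 3.97% of all counts in WT and 4.11% and 3.94% in Sirt7-/- (exact p = 1). The rRNA genes supplied 0.161% and 0.173% in WT and 0.137% and 0.185% in Sirt7-/-, so the mutant replicates enclosed both WT values (exact p = 1). The tRNA genes supplied 0.00396% and 0.00373% in WT and 0.00349% and 0.00354% in Sirt7-/-, with the mutant pair below the WT pair (exact p = 0.333, the smallest this design allows).

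Of the 37 genes, 35 had a count in at least 1 library, and 33 to 35 did in any single library. mt-Tf and mt-Tg, the tRNA genes for phenylalanine and glycine, were at 0 counts in all 4. mt-Co1, the catalytic subunit of cytochrome c oxidase (complex IV), had the most counts of any gene in the table, 308074 and 301811 in WT and 300789 and 285146 in Sirt7-/-. It took 31.3% to 33.8% of all mitochondrial counts. Of the 10 genes with the most counts over the 4 libraries, 4 were mitochondrial and 3 more were nuclear copies of mitochondrial genes, and among the first 30 these numbers were 10 and 5.

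**Figure D1:**
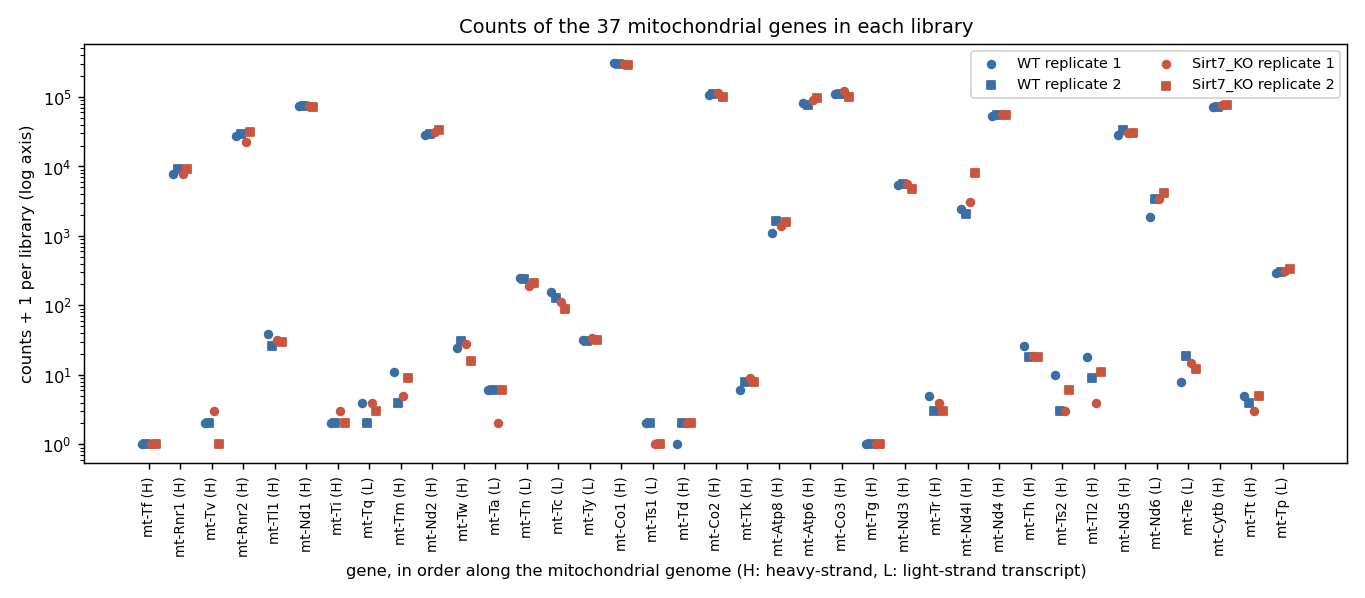
Counts plus 1 of each mitochondrial gene in each library (log axis), in order along the genome, with H and L for the strand of the transcript. Blue points are the 2 WT and red points the 2 Sirt7-/- libraries. Protein and rRNA genes lie at 1086 counts or more, tRNA genes at 334 or fewer, and the libraries of one gene lie close together except at mt-Nd4l, mt-Nd6 and the tRNA genes with few counts.

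The counts of several mitochondrial genes were also found, nearly unchanged, on nuclear genes. Nuclear chromosomes carry stretches of mitochondrial DNA that were inserted during evolution. When the chrM sequence was aligned to the rest of GRCm39, 14 alignments reached 100 bases at 90% identity or more. The longest joined chrM:6390-11042 to chr1:24650616-24655269 over 4654 aligned bases at 99.936% identity. It spans the 3′ part of mt-Co1, all of mt-Co2, mt-Atp8, mt-Atp6, mt-Co3, mt-Nd3 and mt-Nd4l, and the 5′ part of mt-Nd4. The copy differed from chrM at 3 places: A6393T, T9461C and 1 more A just before position 9829 (chrM base first, positions counted from 1 on GRCm39 chrM, then the base of the copy). The place in mt-Nd3 is shown with 20 bases on each side, the differing base in capitals and both in the sense of the transcript.
chrM:9441-9481, + strand: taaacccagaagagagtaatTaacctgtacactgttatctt
chr1:24652178-24652218, - strand: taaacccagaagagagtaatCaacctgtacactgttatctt
The GRCm39 sequence is that of C57BL/6J mice, and the 129S1/Sv sequences were not analysed here.

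In this stretch the annotation places 8 pseudogenes and other genes on chromosome 1, and 11 genes with counts lie in mitochondrial copies across the nuclear genome. Gm28437, the copy of mt-Co3 at chr1:24652270-24653052, had 111393 and 110436 counts in WT and 121790 and 101488 in Sirt7-/-. mt-Co3 itself had 111369 and 110306 counts in WT and 121632 and 101628 in Sirt7-/-. Gm28661, the copy of mt-Co2, had 108426, 110022, 112284 and 99867 counts against 108551, 110306, 112549 and 100061 on mt-Co2, in the order WT replicates 1 and 2, then Sirt7-/- replicates 1 and 2. Gm10222, the copy of mt-Nd4l, had 2428, 2070, 3116 and 8074 counts against 2409, 2059, 3096 and 8078 (this copy and the 3 after Gm29216 below were singled out after their values were seen).

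Over these 3 genes and 4 libraries the copy and the mitochondrial gene differed by 4 to 284 counts, at most 0.789% of the mitochondrial gene's count. The counts of a pair moved together even where a library stood apart, as the 8078 and 8074 counts of mt-Nd4l and Gm10222 in Sirt7-/- replicate 2 show. The rows of a pair were therefore not treated as separate measurements, and the table does not say how many reads came from either locus. The setting that counts a read with several alignments is not given in the sources used here.

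Atp6-ps, the copy of mt-Atp6 at chr1:24653055-24653732, was the exception among the full-length copies with many counts. It had 101330 and 103892 counts in WT and 119200 and 132031 in Sirt7-/-, above mt-Atp6 in every library. The excess over mt-Atp6 was 20347 and 26242 counts in WT and 27794 and 36548 in Sirt7-/-, or 20.1% to 27.7% of the Atp6-ps count. On chrM a fragment over the 5′ end of mt-Atp6 also lies on mt-Atp8, whereas the nuclear copy of mt-Atp8 is not among the 18 annotated genes found in copies. The part of the overlap in this excess was not tested.

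Gm29216, the copy of the 3′ part of mt-Co1, had 65232, 66726, 67894 and 68564 counts, and Gm28439, the copy of the 5′ part of mt-Nd4, had 25533, 28460, 28383 and 26749. Over mt-Nd3 the annotation places 2 chromosome 1 genes that overlap each other, Gm71269 with 7 to 18 counts per library and Gm28438 with none, against 4801 to 5573 on mt-Nd3. The chromosome 1 copy genes together held 1.88% and 1.91% of all counts in WT and 2.04% and 1.98% in Sirt7-/-. Counted with the mitochondrial genes, all copies raised the share to 6.03% and 6.06% in WT and 6.29% and 6.11% in Sirt7-/-. Since the rows of a pair were nearly equal, this sum may hold the same reads more than once and is not a share of reads. The total of all counts holds the copy rows too, so the mitochondrial share of all counts need not be a share of reads either.

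**Figure D2:**
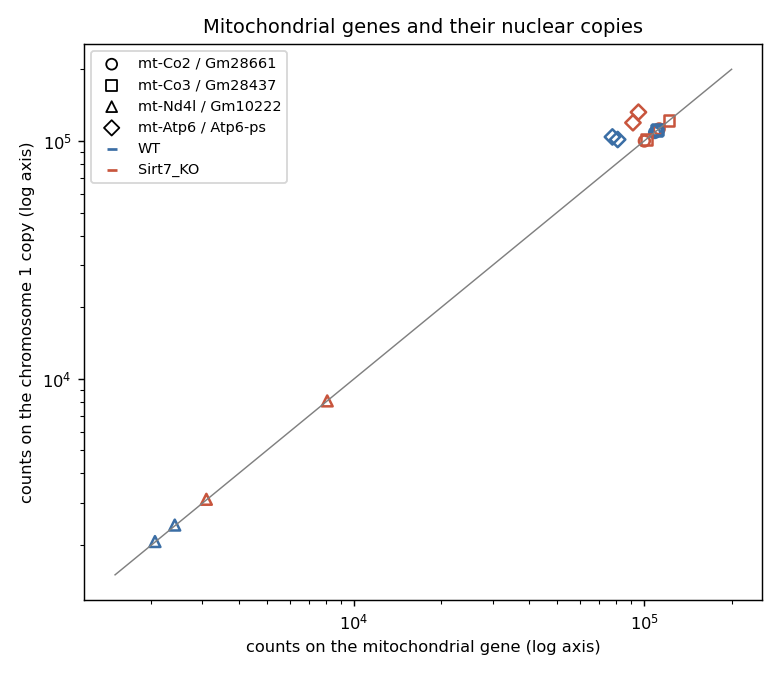
Counts on a mitochondrial gene (x, log axis) against counts on its chromosome 1 copy (y, log axis), 1 symbol per library, blue for WT and red for Sirt7-/-, with the line of equal counts. mt-Co2, mt-Co3 and mt-Nd4l lie on the line in all 4 libraries, differing by at most 284 counts, and mt-Atp6 lies below its copy.

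WT and Sirt7-/- were then compared gene by gene. After a filter on low counts, 24 of the 37 genes were tested: the 13 protein genes, both rRNA genes and 9 of the 22 tRNA genes. None was called at an adjusted p under 0.1 (edgeR), against 17 of 19736 genes (0.0861%) over the whole table. At an unadjusted p under 0.05 there were 5 of the 24 (mt-Nd4l, mt-Atp6, mt-Nd2, mt-Nd6 and mt-Tc), against 8.62% of all genes. DESeq2, the tool the study itself used at the same threshold, called 1 of them, mt-Atp6, beside 48 of 11330 genes (0.424%). The median log2 fold change was -0.00 over the 24 genes, 0.05 over the protein genes and -0.25 over the 9 tRNA genes, and 0.00 over all genes tested. In 9 genes the WT and Sirt7-/- libraries did not overlap, 7 with both mutant libraries above both WT libraries and 2 with both below, against 39.7% of all genes (20.3% above and 19.4% below).

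**Figure D3:**
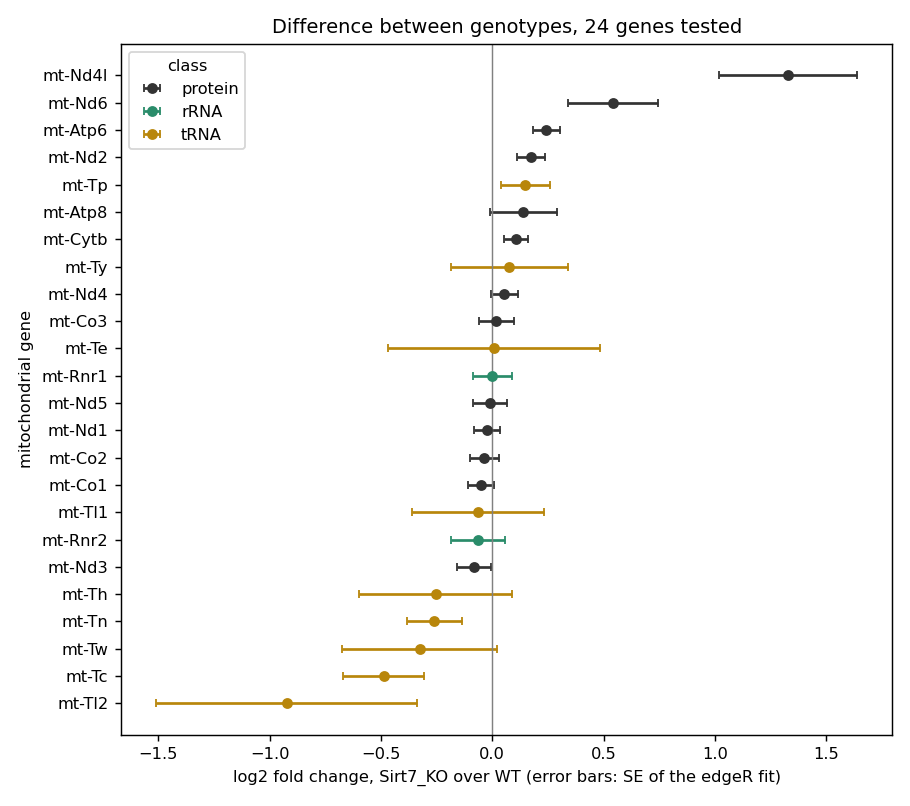
Log2 fold change (Sirt7-/- over WT) of the 24 mitochondrial genes tested, with the standard error of the edgeR fit as bars, coloured by class. mt-Nd4l at 1.33 and mt-Nd6 at 0.54 stand highest and mt-Tl2 at -0.92 lowest, and none passed an adjusted p of 0.1.

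Complex I, NADH dehydrogenase, takes electrons from NADH, and its 7 mitochondrial subunits form the membrane arm that pumps protons. mt-Nd4l had 2409 and 2059 counts in WT and 3096 and 8078 in Sirt7-/-. Both mutant libraries were above both WT libraries, but replicate 2 of Sirt7-/- held 2.61 times the CPM of replicate 1, so the mutant mean of 254 ± 160.4 CPM (SD, n = 2) spread widely around 101 ± 11.6 in WT. The log2 fold change was 1.33 ± 0.31 SE (adjusted p = 0.254). Without Sirt7-/- replicate 1 it was 1.86 and without replicate 2 it was 0.48, and edgeR called the gene in both cases (adjusted p = 0.0024, in a fit that called 8 genes or 0.0382%, and 0.0112, in a fit that called 465 or 2.23%), with the remaining mutant library assumed to vary like the WT pair. Relative to mt-Nd4, with which it shares a transcript, mt-Nd4l stood at 4.52% and 3.69% of the mt-Nd4 count in WT and at 5.35% and 14.7% in Sirt7-/- (exact p = 0.333). mt-Nd4 itself had 53335 and 55850 counts in WT and 57849 and 55026 in Sirt7-/-, which overlapped.

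mt-Nd2 had 27936 and 29684 counts in WT and 31084 and 33629 in Sirt7-/-. The groups did not overlap, at 1304 ± 50.4 CPM in WT and 1472 ± 82.8 in Sirt7-/- (SD, n = 2), with a log2 fold change of 0.17 ± 0.06 SE (unadjusted p = 0.0193, adjusted p = 0.501, edgeR). mt-Nd1, the subunit next to the quinone site, was nearly level in the 4 libraries at 75231, 75138, 74723 and 72496 counts (log2 fold change -0.02 ± 0.06 SE). mt-Nd3 had 5463 and 5572 counts in WT and 5573 and 4801 in Sirt7-/- (-0.08 ± 0.07). mt-Nd5 had 28240 and 33447 counts in WT and 30718 and 30261 in Sirt7-/-, the mutant pair lying inside the WT pair (-0.01 ± 0.08).

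mt-Nd6 is the only protein gene of the light strand, and in human cells its mRNA is known to lack a stable poly(A) tail. It had 1868 and 3395 counts in WT and 3433 and 4190 in Sirt7-/-. The first WT library stood alone, and the second lay just under the lower mutant library. WT replicate 2 stood 0.85 above WT replicate 1 on the log2 scale of CPM, with a counting error of 0.04, which covers counting alone. The log2 fold change between genotypes was 0.54 ± 0.20 SE (adjusted p = 0.501), 0.18 without WT replicate 1 and 1.03 without WT replicate 2. As a percentage of the 12 heavy-strand protein genes mt-Nd6 stood at 0.214% and 0.388% in WT and 0.378% and 0.485% in Sirt7-/- (exact p = 0.667). The library kit marks strand but the strand setting of the counting is not given. Reads of heavy-strand RNA that lie over the mt-Nd6 gene therefore cannot be told apart from reads of mt-Nd6.

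mt-Cytb, cytochrome b, is the one mitochondrial subunit of complex III, which passes electrons from quinol to cytochrome c. Its counts were 71791 and 71252 in WT and 76785 and 76482 in Sirt7-/-. Replicates were tight, at 3238 ± 31.0 CPM and 3486 ± 7.46 CPM (SD, n = 2), and the groups did not overlap. The log2 fold change was 0.11 ± 0.06 SE (adjusted p = 0.623).

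Complex IV, cytochrome c oxidase, reduces oxygen to water, and mt-Co1, mt-Co2 and mt-Co3 form its catalytic core. None of the 3 passed the test, and in TMM-scaled CPM the genotypes overlapped in each. The unscaled counts of mt-Co1 were lower in both mutant libraries than in both WT libraries, as was its share of all counts (1.3999% and 1.3648% in WT, 1.3561% and 1.2933% in Sirt7-/-). mt-Co1 had a log2 fold change of -0.05 ± 0.06 SE, mt-Co2 of -0.03 ± 0.07 and mt-Co3 of 0.02 ± 0.08. In both mt-Co2 and mt-Co3 the WT libraries lay between the mutant ones, Sirt7-/- replicate 1 being the highest of the 4 and replicate 2 the lowest.

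The ATP synthase has 2 mitochondrial subunits, both in the part that sits in the membrane. mt-Atp6, which forms the proton channel, had 80983 and 77650 counts in WT and 91406 and 95483 in Sirt7-/-. It stood at 3591 ± 122 CPM in WT and 4251 ± 134 CPM in Sirt7-/- (SD, n = 2), and the gap between the groups was larger than either spread. The log2 fold change was 0.24 ± 0.06 SE (unadjusted p = 0.0018, adjusted p = 0.274 with edgeR), while DESeq2 gave an adjusted p of 0.0660. Without Sirt7-/- replicate 2 edgeR gave an adjusted p of 0.0359, in the same fit with 465 calls in place of 17. Its nuclear copy Atp6-ps, which is no independent measurement, had a log2 fold change of 0.30 ± 0.06 (adjusted p = 0.229 with edgeR, 0.0117 with DESeq2). mt-Atp8, a small stabilising subunit, had 1086 and 1639 counts in WT and 1378 and 1609 in Sirt7-/- (0.14 ± 0.15 SE), which overlapped.

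**Figure D4:**
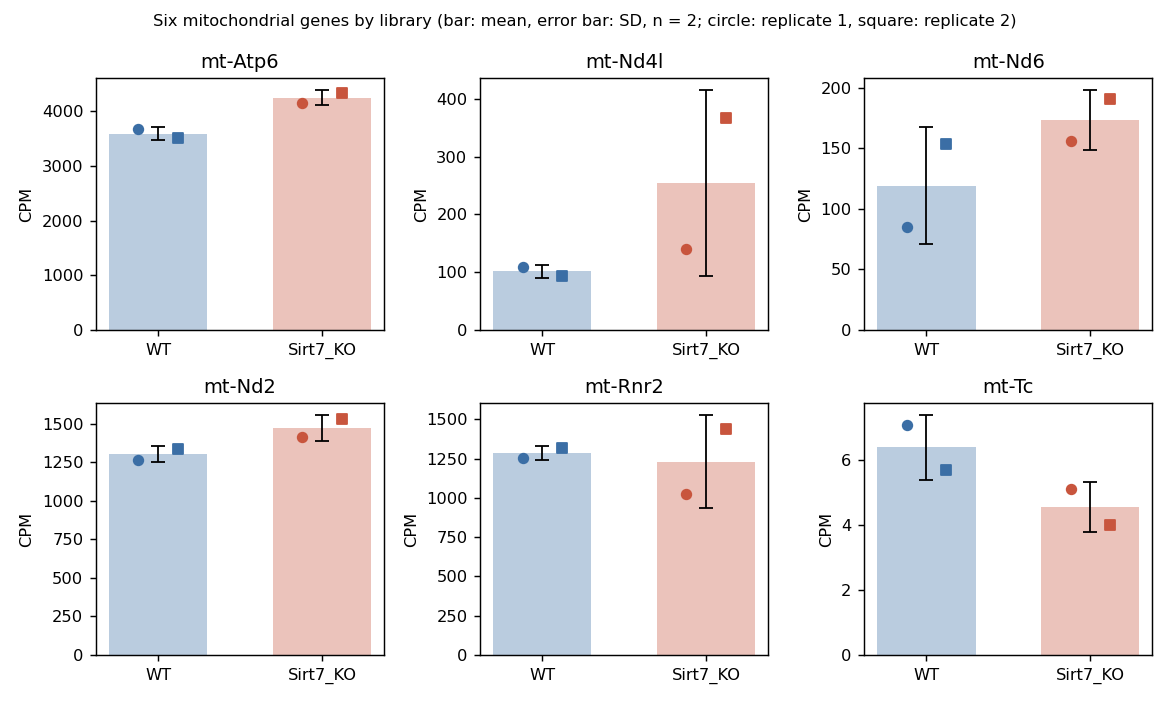
TMM-scaled CPM of mt-Atp6, mt-Nd4l, mt-Nd6, mt-Nd2, mt-Rnr2 and mt-Tc in each library (circle replicate 1, square replicate 2), with bars at the mean and error bars of 1 SD (n = 2). mt-Atp6 separates the genotypes with a small spread. In mt-Nd4l both mutant libraries lie above both WT libraries, replicate 2 far above, and in mt-Nd6 the first WT library lies apart.

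Counts of different genes were compared per kilobase of gene, which gives reads assigned to a gene and not the amount of its RNA. mt-Atp8 and mt-Nd4l are short and each overlaps a neighbour on the same strand. How reads were assigned there was not tested, so the values of these genes need not show the level of their RNA. In WT, mt-Co1 was highest at 8936 ± 168 CPM per kb (SD, n = 2), followed by mt-Co2 at 7243 ± 51.4, mt-Co3 at 6400 ± 70.6 and mt-Atp6 at 5273 ± 179. Each of these 4 was further from its neighbour than the spread of either, which covers replicates alone. mt-Atp6 overlaps mt-Atp8, and its counts lay below those of its copy Atp6-ps by 20.1% to 27.7% of the Atp6-ps count. Its place in this order may therefore depend on how reads were assigned, which was not tested. mt-Nd1 followed at 3557 ± 18.2, mt-Cytb at 2830 ± 27.1, mt-Nd4 at 1793 ± 50.8 and mt-Nd2 at 1256 ± 48.6. mt-Rnr2 at 813 ± 27.9, mt-Nd5 at 765 ± 88.1 and mt-Nd3 at 718 ± 6.98 came next, and mt-Nd5 did not differ from either neighbour beyond its own spread. Below them were mt-Rnr1 at 403 ± 42.4, mt-Nd4l at 341 ± 39.2, mt-Atp8 at 302 ± 85.5 and mt-Nd6 at 229 ± 93.2, and mt-Atp8 was nearer to both its neighbours than its own spread. In Sirt7-/- the same 8 genes led, with mt-Atp6 at 6242 ± 197 and mt-Co3 at 6477 ± 816, a pair that differed by less than the spread of mt-Co3, while the spread of mt-Nd4l at 856 ± 540.1 covered the levels of mt-Rnr2, mt-Nd5 and mt-Nd3.

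The share of each gene within the counts of the 13 protein genes tells one transcript from all of them. mt-Co1 made up 35.2% and 34.4% in WT and 33.0% and 32.8% in Sirt7-/-. mt-Atp6 made up 9.24% and 8.84% in WT and 10.03% and 10.99% in Sirt7-/-. These shares differed in opposite directions without overlap, each at the smallest p of 0.333 that the exact permutation test allows. In all, 8 of the 13 shares did not overlap between genotypes, mt-Nd2, mt-Atp6, mt-Nd4l and mt-Cytb with the mutant pair above and mt-Nd1, mt-Co1, mt-Co2 and mt-Nd3 with it below. Over all genes tested, the CPM of 39.7% did not overlap. Shares of one total are tied to each other, so these 8 are not 8 separate differences. When counts were taken per kb before the shares were formed, mt-Nd2 overlapped and the other 7 did not.

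**Figure D5:**
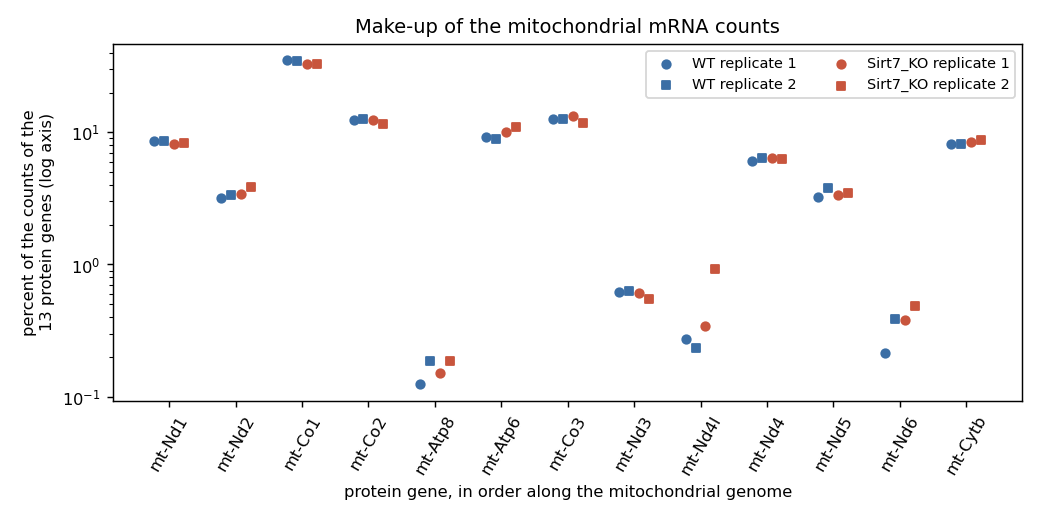
Percentage of the counts of the 13 mitochondrial protein genes that each gene took in each library (log axis), in order along the genome, blue for WT and red for Sirt7-/-. mt-Co1 lies at 33.0% and 32.8% in Sirt7-/- against 35.2% and 34.4% in WT, and mt-Atp6 lies at 10.03% and 10.99% in Sirt7-/- against 9.24% and 8.84% in WT.

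The rRNA genes lie near the start of the heavy-strand transcript. mt-Rnr1, the small-subunit rRNA, had 7849 and 9165 counts in WT and 7813 and 9109 in Sirt7-/- (log2 fold change -0.00 ± 0.09 SE). The replicates of each genotype differed by more than the genotypes did. mt-Rnr2, the large-subunit rRNA, had 27625 and 29172 counts in WT and 22468 and 31600 in Sirt7-/- (-0.06 ± 0.12). Sirt7-/- replicate 1 was the lowest of the 4 libraries and replicate 2 the highest, and the log2 fold change was 0.16 without replicate 1 and -0.33 without replicate 2 (adjusted p = 0.43 and 0.00614, edgeR). The second value is from the fit that called 2.23% of all genes, with the lone mutant library assumed to vary like the WT pair. The ratio of mt-Rnr2 to mt-Rnr1 counts was 3.52 and 3.18 in WT and 2.88 and 3.47 in Sirt7-/- (exact p = 0.667). The library kit was made for mRNA, so these counts do not measure the amount of rRNA in the cells.

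The 22 tRNA genes held 871 and 824 counts in WT and 775 and 780 in Sirt7-/- in sum. Most came from the 8 light-strand genes, at 734 and 724 in WT and 672 and 681 in Sirt7-/-, whereas the 14 heavy-strand genes held 137 and 100 in WT and 103 and 99 in Sirt7-/-. The light-strand sums did not overlap between genotypes (exact p = 0.333), and the heavy-strand sums did (exact p = 0.667). Most of the light-strand counts lay on mt-Tp, mt-Tn and mt-Tc. The strand setting of the counting is not given, so reads of the opposite strand over these genes cannot be told apart either. Counts on genes of this length may be pieces of the longer transcripts as well as tRNAs, and the table does not separate them.

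mt-Tp, for proline, had 287 and 303 counts in WT and 317 and 334 in Sirt7-/- (log2 fold change 0.15 ± 0.11 SE, adjusted p = 0.738). mt-Tn, for asparagine, had 244 and 240 counts in WT and 192 and 210 in Sirt7-/- (-0.26 ± 0.12, adjusted p = 0.588). mt-Tc, for cysteine, had 156 and 126 counts in WT and 112 and 88 in Sirt7-/- (-0.49 ± 0.18, unadjusted p = 0.0222, adjusted p = 0.501). The groups of all 3 were apart, mt-Tp with the mutant pair above, and mt-Tn and mt-Tc with it below. Of the 9 tRNA genes tested, 4 did not overlap between genotypes, against 39.7% of all genes. None passed the test.

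The other tRNA genes that were tested had 3 to 38 counts per library. mt-Ty, for tyrosine, was nearly level at 31 and 30 counts in WT and 33 and 31 in Sirt7-/- (0.08 ± 0.26). The other 5 overlapped between genotypes: mt-Tl1 (-0.06 ± 0.30), mt-Tw (-0.33 ± 0.35), mt-Th (-0.25 ± 0.34), mt-Tl2 (-0.92 ± 0.59) and mt-Te (0.01 ± 0.48), given as log2 fold changes with SE. Of these mt-Tl2 spread widest, from 17 and 8 counts in WT to 3 and 10 in Sirt7-/-. Beside mt-Tf and mt-Tg, the untested genes were mt-Tv, mt-Ti, mt-Tq, mt-Tm, mt-Ta, mt-Ts1, mt-Td, mt-Tk, mt-Tr, mt-Ts2 and mt-Tt, with 0 to 10 counts in any library, where a difference between genotypes was not detectable at this depth.

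Nuclear genes that act on the mitochondrial genome or its RNA were listed with nuclear regulators of mitochondrial genes and genes of the mitochondrial unfolded protein response. These 94 genes were counted in the same fit. Neither edgeR nor DESeq2 called any of them at an adjusted p under 0.1. The unadjusted edgeR p was under 0.05 for 7 (8.62% over all genes), and 47 lay above 0 and 47 below with a median log2 fold change of 0.00. Polrmt, the mitochondrial RNA polymerase, stood at 43.1 ± 4.34 CPM in WT and 44.9 ± 2.57 in Sirt7-/-, and Tfam, which packs the DNA and starts transcription, at 54.8 ± 3.80 and 55.1 ± 1.54 (SD, n = 2). Mrpl12, a ribosomal protein that also binds the polymerase, had a log2 fold change of 0.10 ± 0.08 SE.

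Among 15 replication genes Polg, the DNA polymerase, was level (-0.00 ± 0.06), as was the nucleotide carrier Slc25a36 (-0.00 ± 0.06). Top1mt, the mitochondrial topoisomerase, was at 0.29 ± 0.13 (adjusted p = 0.575) and the carrier Slc25a33 at 0.17 ± 0.10. Among 9 genes that cut and trim the transcripts, Elac2, which cleaves tRNA 3′ ends, was at 0.08 ± 0.07, Angel2 at 0.00 ± 0.07 and Prorp, the nuclease for tRNA 5′ ends, at -0.13 ± 0.11. Among 14 genes of RNA stability, Grsf1 and Lrpprc, which bind mitochondrial RNAs, were both at -0.11 with SE of 0.07 and 0.06. None of these passed the test.

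Of 22 genes that modify tRNA or rRNA, Gtpbp3, which modifies the wobble base of mitochondrial tRNAs, was at 0.32 ± 0.11 (adjusted p = 0.474) and Mrm2, a methyltransferase of the large rRNA, at -0.45 ± 0.19 (adjusted p = 0.542). Yrdc was at 0.08 ± 0.07 and Rpusd4 at 0.04 ± 0.08. Of 11 regulators of mitochondrial genes in the nucleus, Gabpb2, a partner subunit of the factor GABP, was at 99.8 ± 3.35 CPM in WT and 79.9 ± 9.92 in Sirt7-/- (-0.32 ± 0.09, adjusted p = 0.344). Ppargc1b, a coactivator, was at 0.73 ± 0.38 from under 1 CPM in WT, Pprc1 at 0.07 ± 0.06 and Yy1 at -0.07 ± 0.08. Of 12 genes of the mitochondrial unfolded protein response, the chaperones Hspa9 and Hspd1 were at -0.08 ± 0.06 and -0.12 ± 0.06, the protease Clpp at 0.18 ± 0.08 and the transcription factor Ddit3 at 0.21 ± 0.09. None of these genes passed the test.

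The same complexes hold many subunits encoded in the nucleus, and a difference between these and the mitochondrial subunits was not tested. Of 74 such genes, 0 were called by edgeR or DESeq2 and 17 had an unadjusted p under 0.05, where the shares over all genes were 0.0861% (edgeR), 0.424% (DESeq2) and 8.62%. Of the same 74, 68 lay above 0 and 6 below, against 9992 above and 9744 below among all 19736 genes. Their median log2 fold change was 0.11, against 0.05 over the 13 mitochondrial protein genes and 0.00 over all genes. The median was 0.11 for 36 complex I genes, 0.08 for 9 of complex III, 0.15 for 11 of complex IV and 0.10 for 18 of the ATP synthase. Uqcr11, a small complex III subunit, was highest among those named at 0.33 ± 0.08 SE (adjusted p = 0.262), beside Uqcrh at 0.19 ± 0.07, Cyc1 at 0.08 ± 0.07 and Uqcrc1 at 0.01 ± 0.06. In complex IV, Cox8a stood at 0.24 ± 0.06, Cox6a1 at 0.23 ± 0.06 and Cox4i1 at 0.06 ± 0.06. In complex I, Ndufa2 stood at 0.24 ± 0.08, Ndufb10 at 0.23 ± 0.07, Ndufa9 at 0.04 ± 0.07 and Ndufv1 at -0.10 ± 0.07. The abundant ATP synthase subunits Atp5f1a (-0.02 ± 0.06) and Atp5f1b (-0.00 ± 0.06) were level, while Atp5f1d stood at 0.16 ± 0.06 and Atp5mc2 at 0.21 ± 0.09.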

How the data were processed

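RNA from 4 pellets of Pnd 5 testis cells (2 WT, 2 Sirt7-/-) was sequenced by the authors as strand-specific mRNA libraries with paired reads of 150 bases, aligned to GRCm39 with HISAT2 and counted per gene with featureCounts. The sources used here give no version, no annotation, and no setting for strand or for multi-mapping reads. The deposited values are raw counts, in 1 table of 78275 genes, and 78263 of the IDs matched GENCODE M39.

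Genes were filtered with filterByExpr (minimum count 10), scaled by TMM and tested with the edgeR 4.0.16 quasi-likelihood F test in R 4.3.3, with Benjamini-Hochberg adjustment over 19736 genes and calls at an adjusted p under 0.1. DESeq2 1.42.0, limma-voom (limma 3.58.1), other scalings, filters and thresholds, a replicate block, each library left out and other treatments of the nuclear copies were run as alternatives. That the copies are left out of the table altogether was added after seeing the data. The edgeR step was tested on simulated counts. Nuclear copies were found with BLAST 2.17.0, and an annotated gene was taken as lying in a copy when at least 90% of it was aligned. Shares were compared with two-sided exact permutation tests (scipy 1.17.1). Log2 fold changes are Sirt7-/- over WT.

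The mitochondrial genes and all gene lists were chosen with earlier results of these data known. All mitochondrial genes are named, and from each nuclear list the called genes or, with none, 2 by highest mean CPM and 2 by smallest p. Of the genes in nuclear copies, the 4 with the highest mean count are named.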

Additional observations from a re-analysis of the deposited data

How the results depend on the processing

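The 4 libraries limit every comparison, since 2 against 2 cannot give an exact p under 0.333, and tRNA genes with few counts were not resolved at this depth. Over 964 repeats of single named genes under other settings, 894 kept direction and side of the threshold, 48 turned direction, 19 passed it newly and 3 (all Sirt7) fell short of it. Calls of mitochondrial genes stayed at 0 with a threshold of 0.05 and with limma-voom, any other scaling, either other filter, or the nuclear copies added or left out, whereas DESeq2 called 1. Counting the nuclear copies as mitochondrial raised the difference in the mitochondrial share of counts from 0.0406 to 0.157 percentage points. That sum may hold the same reads more than once. A TMM-scaled library size as denominator gave a difference of 0.0711. With each library left out the share difference ranged from -0.0186 to 0.0997 and the log2 ratio of mt-Nd6 to the heavy-strand genes differed by 0.141 to 1.00.

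Of all genes tested, 17 were called, but 9 at an adjusted p under 0.05, 48 with DESeq2 and 0 with no filter on low counts (2032 of 46456 at an unadjusted p under 0.05). Leaving out a library gave 0 calls without WT replicate 1 or WT replicate 2 (where the unadjusted p was under 0.05 for 596 and 824), 8 without Sirt7-/- replicate 1 and 465 without Sirt7-/- replicate 2, a range of 0 to 465, and 0 to 3 mitochondrial genes, with the lone library assumed to vary like the other group. The causes were not tested.

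The sources used here do not state that replicate numbers pair the samples. The same-number correlation of deviations was 0.0776 over 19736 genes, which with 2 pairs cannot settle whether they do. The edgeR fit with a replicate block called 236 genes (1.2%), 3 of them mitochondrial (mt-Nd6, mt-Nd4l and mt-Atp6, adjusted p = 0.00152, 0.00196 and 0.0637). It also called 1 of the 94 control genes (Gabpb2, adjusted p = 0.0648) and 1 of the 74 nuclear subunits (Uqcr11, adjusted p = 0.0796).

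Log2 fold changes near 0 turned direction under other settings, none of them called: with DESeq2 mt-Rnr1 (0.00361), Slc25a36 (0.000274) and Polg (0.0025), with no filter mt-Rnr1 (0.00915), mt-Nd5 (0.000619), Slc25a36 (0.00586), Polg (0.00807) and Atp5f1b (0.00534), and with total-count scaling mt-Te (-0.00358), Tfam (-0.00432), Angel2 (-0.00700) and Uqcrc1 (-0.00158). Direction also turned when a library was left out, over ranges of -0.112 to 0.112 for mt-Rnr1, -0.327 to 0.162 for mt-Rnr2, -0.0452 to 0.00172 for mt-Nd1, -0.122 to 0.0512 for mt-Co2, -0.118 to 0.145 for mt-Co3, -0.121 to 0.463 for mt-Atp8, -0.193 to 0.0251 for mt-Nd3, -0.12 to 0.114 for mt-Nd5, -0.336 to 0.275 for mt-Tl1, -0.808 to 0.0375 for mt-Tw, -0.508 to 0.0551 for mt-Th and -0.508 to 0.829 for mt-Te. Among nuclear genes the ranges were -0.0601 to 0.0801 for Tfam, -0.0375 to 0.17 for Polrmt, -0.0445 to 0.0407 for Slc25a36, -0.0355 to 0.0347 for Polg, -0.0397 to 0.052 for Angel2, -0.0204 to 0.107 for Rpusd4, -0.165 to 0.0275 for Yy1, -0.193 to 0.00011 for Ndufv1, -0.00896 to 0.0923 for Ndufa9, -0.0202 to 0.0422 for Uqcrc1, -0.0225 to 0.0165 for Atp5f1b, -0.0633 to 0.0325 for Atp5f1a, -0.121 to 0.146 for Gm28437, -0.122 to 0.0505 for Gm28661 and -0.0324 to 0.114 for Gm28439.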
